A study of Mus musculus with 16 samples.

Results

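The genes described here are 10 genes of serine synthesis and of the ATF4 stress response, out of 18193 genes with a probe set of their own on the array. They are taken by name: Phgdh, Psat1 and Psph, the 3 enzymes of serine synthesis; Shmt2 and Mthfd2, which carry serine carbon into mitochondrial folate; Atf4 itself; and Asns, Trib3, Ddit3 and Chac1, genes that ATF4 is known to switch on. All 10 had at least 1 probe set that lists the gene alone, 23 in all among 45037 tested. A further 2 probe sets list Phgdh together with another gene and were not used. Each gene is described by its brightest probe set, and the others are set beside it.

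The liver RNA of 16 male mice, 3 to 5 months old, was measured on an Affymetrix mouse genome array, with 1 array for each mouse. There were 4 groups of 4 mice: wild-type mice (129S1/SvImJ) and PPARα-null mice (129S4/SvJae), each either on control food or on food that held 0.1% Wy14643 for 5 days. Wy14643 is a synthetic agonist of PPARα, the nuclear receptor that the null mice, called knockout below, lack in every tissue. The study asked which liver genes depend on PPARα. Because the genotypes are of different 129 substrains, a difference between wild type and knockout cannot be told apart from one between substrains. The same holds for a difference between their responses to Wy14643. A response within 1 genotype compares mice of 1 substrain. Whole liver was used, so fewer cells of a type and less RNA per cell cannot be told apart.

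Serine is made from a glycolytic intermediate in 3 steps. Phgdh oxidises 3-phosphoglycerate, Psat1 adds the amino group and Psph removes the phosphate. Serine then gives its side-chain carbon to folate, in mitochondria through Shmt2 and Mthfd2, for the synthesis of nucleotides and methyl donors. Liver takes up serine from food and also breaks it down, and it is known to raise serine synthesis when dietary protein is short. ATF4 is a transcription factor that is made mainly by translational control: kinases that sense missing amino acids, unfolded proteins in the endoplasmic reticulum, haem shortage or viral RNA phosphorylate eIF2, general translation slows, and the Atf4 message is translated more. The factor then pairs with C/EBP proteins on a short composite element and raises genes of amino acid uptake and synthesis, those of serine synthesis included. An mRNA level of Atf4 is therefore not a level of the factor.

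Promoter windows from 250 bases before to 50 bases after the start were taken from RefSeq (GRCm38.p6), where all 10 genes matched by gene identifier, with 11 windows since Psat1 has 2. They were searched for TGATGNAA, the composite element of C/EBP and ATF factors, on both strands (TTNCATCA on the other). The letters occurred in 3 of the 10 genes, Asns, Trib3 and Chac1, against 3.24% of 14368 genes on the array. By windows this was 27.3% of the 11, against 3.97% of all 32851 windows of the same length. These 3 genes were taken because ATF4 is known to switch them on, so a high share was built into the choice of genes. The 3 windows with a match are printed 5′ to 3′ on the gene's strand with the matching letters in capitals, so that the position of each can be seen. Below them stand the windows of Psat1 (the first of its pair) and Psph, the 2 genes that rose, in which these letters do not occur. A match is a run of letters and not a measured binding site, and its absence says only that these letters are not in this window.
Asns, chr6:7693160-7693459, minus strand, match 23 bases before the start: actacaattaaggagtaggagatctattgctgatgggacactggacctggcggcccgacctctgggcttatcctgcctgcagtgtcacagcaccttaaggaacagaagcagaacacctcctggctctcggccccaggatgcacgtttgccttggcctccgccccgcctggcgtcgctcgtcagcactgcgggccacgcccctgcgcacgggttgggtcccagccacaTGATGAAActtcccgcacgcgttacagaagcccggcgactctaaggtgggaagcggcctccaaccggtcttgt
Trib3, chr2:152344011-152344310, minus strand, match 14 bases after the start, on the opposite strand: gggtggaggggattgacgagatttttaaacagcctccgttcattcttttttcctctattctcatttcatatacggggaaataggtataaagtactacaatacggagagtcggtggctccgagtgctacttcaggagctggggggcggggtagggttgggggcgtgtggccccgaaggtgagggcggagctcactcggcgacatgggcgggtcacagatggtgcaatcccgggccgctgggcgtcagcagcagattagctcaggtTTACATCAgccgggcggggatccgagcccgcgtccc
Chac1, chr2:119350992-119351291, plus strand, match 193 bases before the start, on the opposite strand: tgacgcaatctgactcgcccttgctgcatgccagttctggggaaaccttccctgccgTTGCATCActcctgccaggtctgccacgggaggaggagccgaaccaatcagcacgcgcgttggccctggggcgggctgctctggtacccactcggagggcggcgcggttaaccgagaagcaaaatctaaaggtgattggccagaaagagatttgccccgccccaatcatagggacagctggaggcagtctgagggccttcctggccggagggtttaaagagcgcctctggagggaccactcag
Psat1, chr19:15925010-15925309, minus strand, no match: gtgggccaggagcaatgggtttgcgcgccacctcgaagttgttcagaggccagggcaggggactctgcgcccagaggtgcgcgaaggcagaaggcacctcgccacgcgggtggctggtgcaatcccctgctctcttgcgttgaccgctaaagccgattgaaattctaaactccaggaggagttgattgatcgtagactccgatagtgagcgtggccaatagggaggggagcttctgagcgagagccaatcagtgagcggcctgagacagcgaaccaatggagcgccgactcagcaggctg
Psph, chr5:129787204-129787503, minus strand, no match: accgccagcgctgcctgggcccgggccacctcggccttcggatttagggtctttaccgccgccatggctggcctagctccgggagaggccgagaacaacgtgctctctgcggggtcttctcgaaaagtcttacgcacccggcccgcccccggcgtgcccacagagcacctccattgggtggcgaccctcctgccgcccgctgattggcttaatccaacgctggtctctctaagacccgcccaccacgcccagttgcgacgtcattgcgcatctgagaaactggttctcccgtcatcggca

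Values are log2 of the deposited GCRMA intensities, and a difference on that scale is the first group minus the second. A probe set was called at an adjusted p under 0.01 and a fold over 1.5, with limma fitted on all 16 arrays and Benjamini-Hochberg adjustment over all 45037 probe sets. The median intensity of an array lay at 2.15 to 2.24 on the log2 scale. A group mean at or below 2.24 is taken as background here, and a fold against such a group is given as a bound ("at least"). Arrays of the same group correlated with r of 0.987 to 0.995 across probe sets. For Ppara, the disrupted gene, treated wild type exceeded treated knockout in each of 3 probe sets, by 1.15, 1.43 and 2.2, but signal remained in every knockout mouse, the brightest probe set averaging 9.63.

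In wild-type liver, Wy14643 raised 2 of the 10 genes, Psat1 and Psph, and lowered 1, Atf4. Phgdh, the folate enzymes, Asns, Trib3, Ddit3 and Chac1 were called in neither direction. Among all genes 14.5% were called in the same comparison, 7.72% higher and 6.74% lower. In 5 of the 10 the wild-type groups did not overlap, 3 of them higher and 2 lower on Wy14643, against 29.1% of all genes (14.4% higher, 14.7% lower). The median difference of the 10 genes was 0.05 and that of all genes -0.03. In knockout liver none of the 10 was called (limma; 1 had an unadjusted p under 0.05), where 0.0275% of all genes were (0.0275% higher, 0.0% lower). No gene of the 10 had knockout groups that did not overlap, against 6.38% of all genes (3.68% higher, 2.7% lower).

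**Figure D1:**
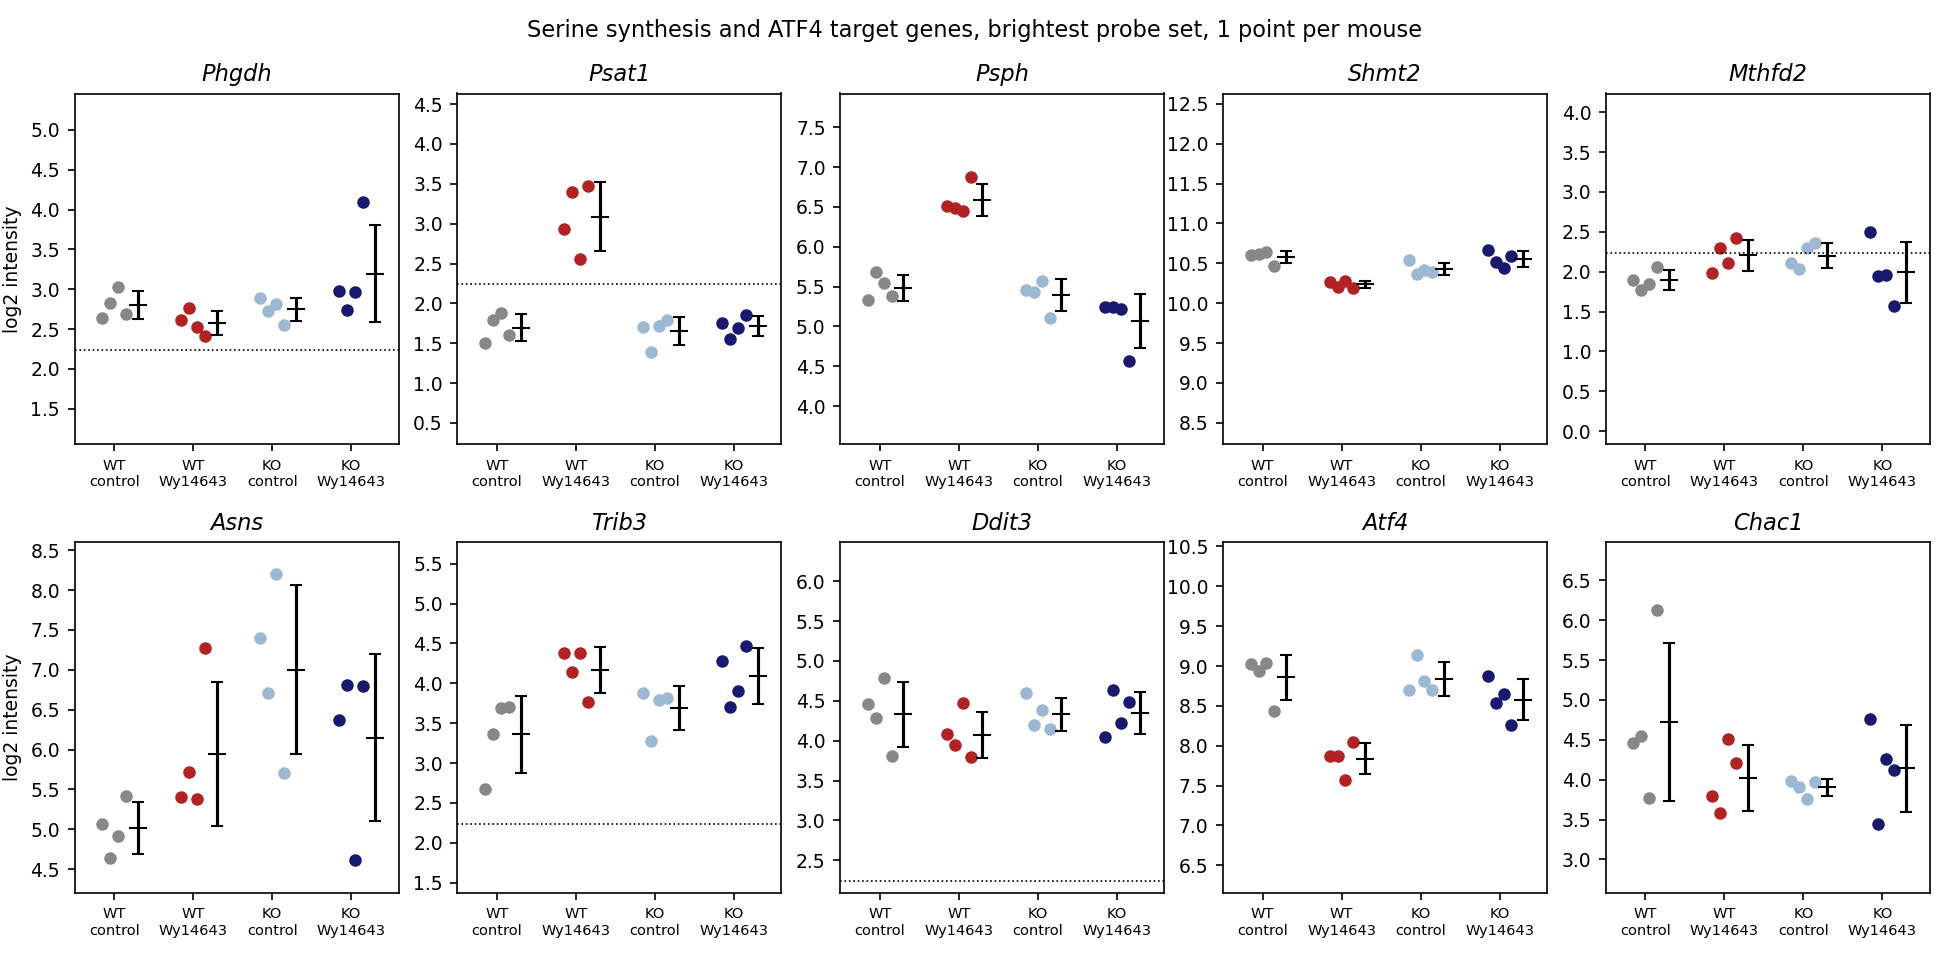
Log2 intensity (vertical) of the brightest probe set of each of the 10 genes in the 4 groups (horizontal), with 1 point per mouse, and the group mean ± SD beside the points (n = 4). All panels span the same log2 range, and the dotted line marks the highest array median, 2.24, at or below which a value is taken as background. Psat1 and Psph of wild type on Wy14643 lie above every other mouse, Atf4 of that group lies below, and Asns scatters widely in 3 groups.

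Psat1, the aminotransferase of the second step, was at background in wild type on control food, where the 4 mice gave 1.5, 1.79, 1.88 and 1.60. On Wy14643 the wild-type mice gave 2.93, 3.40, 2.55 and 3.47. The knockout mice gave 1.71, 1.39, 1.72 and 1.79 on control food and 1.76, 1.56, 1.69 and 1.85 on Wy14643. Every wild-type mouse on Wy14643 thus lay above all of the other 12, while the other 3 groups covered the same range of values. The wild-type response was 1.40 ± 0.17 (log2 ± SE, adjusted p = 5.88e-06). Since the control group was at background, this is an increase of at least 1.8-fold. With an offset of 16 added before the log it was 0.36, under the fold of 1.5, and was not called. Both knockout groups were at background, so no response is given for them. Its second probe set was also called in wild type, at 1.15, with a bound of at least 1.47-fold because it is dimmer still. Psat1 remained a dim gene in treated wild type, with a mean of 3.09 ± 0.43 (SD, n = 4).

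Psph, the phosphatase of the last step, was well above background in all groups. Wild-type mice gave 5.33, 5.68, 5.54 and 5.38 on control food and 6.52, 6.49, 6.45 and 6.88 on Wy14643. Knockout mice gave 5.45, 5.43, 5.57 and 5.10 on control food and 5.25, 5.25, 5.22 and 4.57 on Wy14643. The treated wild-type group again lay apart from all other mice, and the treated knockout mice tended to the lower end. The wild-type response was 1.10 ± 0.16 (adjusted p = 3.96e-05), a 2.14-fold increase. In knockout the difference was -0.32 with an interval of -0.65 to 0.01, and it did not pass (adjusted p = 0.554). Psph has 1 probe set, so no second measurement stands beside it.

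Phgdh, which opens the pathway, gave no such increase. Wild-type mice gave 2.64, 2.83, 3.03 and 2.69 on control food and 2.62, 2.77, 2.53 and 2.41 on Wy14643. Knockout mice gave 2.89, 2.73, 2.82 and 2.56 on control food and 2.98, 2.74, 2.97 and 4.10 on Wy14643. The groups overlapped throughout, and the SD of 0.61 in treated knockout came from the last of these mice. The wild-type response was -0.22 ± 0.21, with an interval of -0.66 to 0.23, so an increase of the size seen in Psat1 or Psph lay outside it. That bound holds for the brightest of 4 dim probe sets. The other 3 averaged below background over the 16 arrays, and no difference is given for them. A fold of a gene near background is compressed, which limits what these probe sets can show.

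Shmt2, the mitochondrial serine hydroxymethyltransferase, had bright probe sets. Wild-type mice gave 10.60, 10.61, 10.64 and 10.47 on control food and 10.27, 10.20, 10.28 and 10.19 on Wy14643. Knockout mice gave 10.54, 10.37, 10.41 and 10.39 on control food and 10.67, 10.51, 10.44 and 10.59 on Wy14643. All 4 treated wild-type mice lay below all others. The difference in wild type, -0.35 ± 0.08, had an adjusted p of 0.00446 but, at 1.27-fold lower, was not called because it missed the fold of 1.5. Its other 3 probe sets gave -0.25, -0.24 and -0.20, none of them called. Mthfd2, the next enzyme, was at background in all 4 groups in its brightest probe set, with group means of 1.89 to 2.2, and so was its second, so no fold is given for it.

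**Figure D2:**
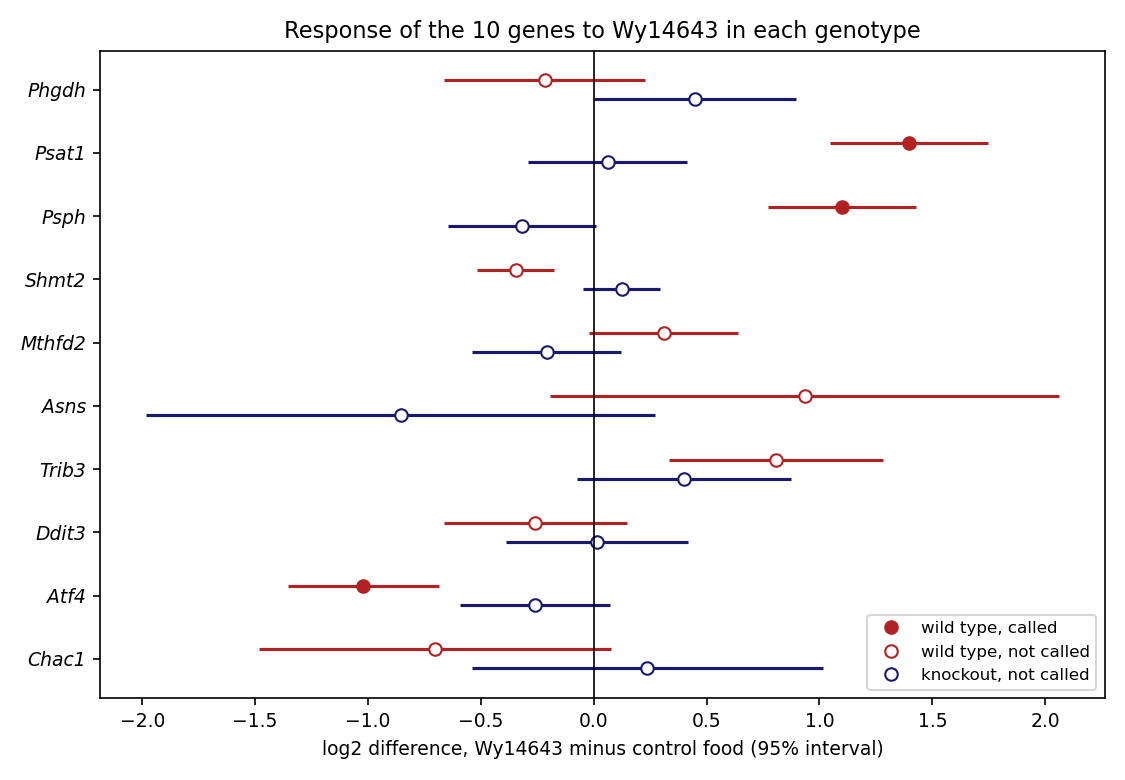
Log2 difference between Wy14643 and control food (horizontal) for each of the 10 genes (vertical), in wild type (red) and knockout (blue), as points with 95% intervals from limma over 16 arrays. Filled points were called: Psat1 at 1.40, Psph at 1.10 and Atf4 at -1.02 in wild type, and none in knockout. Both knockout groups of Psat1 and all 4 groups of Mthfd2 were at background, so their points bound no response.

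Atf4 mRNA fell in wild type. The mice gave 9.02, 8.94, 9.03 and 8.44 on control food and 7.87, 7.87, 7.57 and 8.05 on Wy14643. Knockout mice gave 8.70, 9.14, 8.82 and 8.70 on control food and 8.87, 8.53, 8.65 and 8.26 on Wy14643. No treated wild-type mouse reached any mouse of the other 3 groups, although the highest of them and the lowest treated knockout mouse lay close, at 8.05 and 8.26. The wild-type response was -1.02 ± 0.16 (adjusted p = 1.03e-04), 2.03-fold lower, and that in knockout -0.26, with an interval of -0.59 to 0.07. The second Atf4 probe set was called too in wild type, at -1.20, whereas the third, near background, gave 0.13 and was not called. In knockout the second gave -0.42, with an interval of -0.80 to -0.03, and was not called (limma, adjusted p = 0.499).

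Asns, Trib3, Ddit3 and Chac1, the targets of ATF4 outside serine synthesis and folate, were not called. Trib3, a pseudokinase induced under stress, gave 2.68, 3.37, 3.69 and 3.70 in wild type on control food and 4.38, 4.14, 4.38 and 3.77 on Wy14643. Knockout mice gave 3.88, 3.28, 3.79 and 3.82 on control food and 4.28, 3.70, 3.91 and 4.47 on Wy14643. The wild-type groups did not overlap, by a margin of 3.70 against 3.77, and the knockout groups did. The difference was 0.81 ± 0.22 in wild type (adjusted p = 0.0149), which misses the threshold, and 0.40 ± 0.22 in knockout. A second probe set gave 0.77 in wild type (adjusted p = 0.0188). The call depended on the choices made: without the treated wild-type mouse 4, the lowest, the difference was 0.94 and called (adjusted p = 0.00836), and the mean over both probe sets was called as well (0.79, adjusted p = 0.00701).

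Ddit3, which encodes the pro-apoptotic factor CHOP, gave 4.45, 4.28, 4.78 and 3.80 in wild type on control food and 4.08, 3.94, 4.47 and 3.80 on Wy14643. Its knockout values lay between 4.05 and 4.63 in both groups. The 4 groups overlapped, and the responses of -0.26 (interval -0.66 to 0.15) in wild type and 0.02 (-0.39 to 0.42) in knockout were not called. Its second probe set, at background in every group but treated wild type, gave 0.26 in wild type, the opposite sign, and was not called either (adjusted p = 0.0952). Chac1, which degrades glutathione, gave 4.46, 4.54, 3.77 and 6.12 in wild type on control food and 3.79, 3.58, 4.51 and 4.21 on Wy14643. Knockout mice lay between 3.76 and 3.99 on control food and between 3.44 and 4.76 on Wy14643. The wild-type control mouse at 6.12 stood far above all others, and the response of -0.70 ± 0.37 was not called.

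Asns, the asparagine synthetase and a much used readout of ATF4 activity, varied most between mice of the same group. Wild-type mice gave 5.06, 4.64, 4.91 and 5.42 on control food and 5.41, 5.71, 5.38 and 7.28 on Wy14643. Knockout mice gave 7.40, 6.71, 8.20 and 5.71 on control food and 6.37, 6.81, 4.61 and 6.80 on Wy14643. The lowest and highest knockout mice on control food thus differed 5.61-fold, and in treated wild type 1 mouse stood at 7.28 and the next at 5.71. The order of the group means was 5.01 in wild type and 5.94 in treated wild type, then 6.15 in treated knockout and 7.0 in knockout, and each group overlapped its neighbour in that order. Neither response was called, at 0.93 ± 0.53 in wild type and -0.86 ± 0.53 in knockout. The second Asns probe set showed the same order of group means, but its wild-type groups did not overlap. Its difference was 1.26 in wild type, with an interval of 0.34 to 2.19, and was not called (limma, adjusted p = 0.0516). In knockout it was -0.64 and not called.

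Pooled over the 4 groups, the SD between mice was 0.88 for Asns, and 99.7% of the 7451 genes with a mean above 4 had a smaller one. For Chac1 it was 0.61, with 98.7% smaller. Psph (0.23), Atf4 (0.24) and Ddit3 (0.30) lay at 71.1%, 72.4% and 84.9%, and Shmt2 at 7.74%, with an SD of 0.08. Asns and Chac1 therefore carried wide intervals where Psph and Shmt2 carried narrow ones, and a change in Asns of the size called in Psph lies inside its interval in wild type, -0.19 to 2.06.

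**Figure D3:**
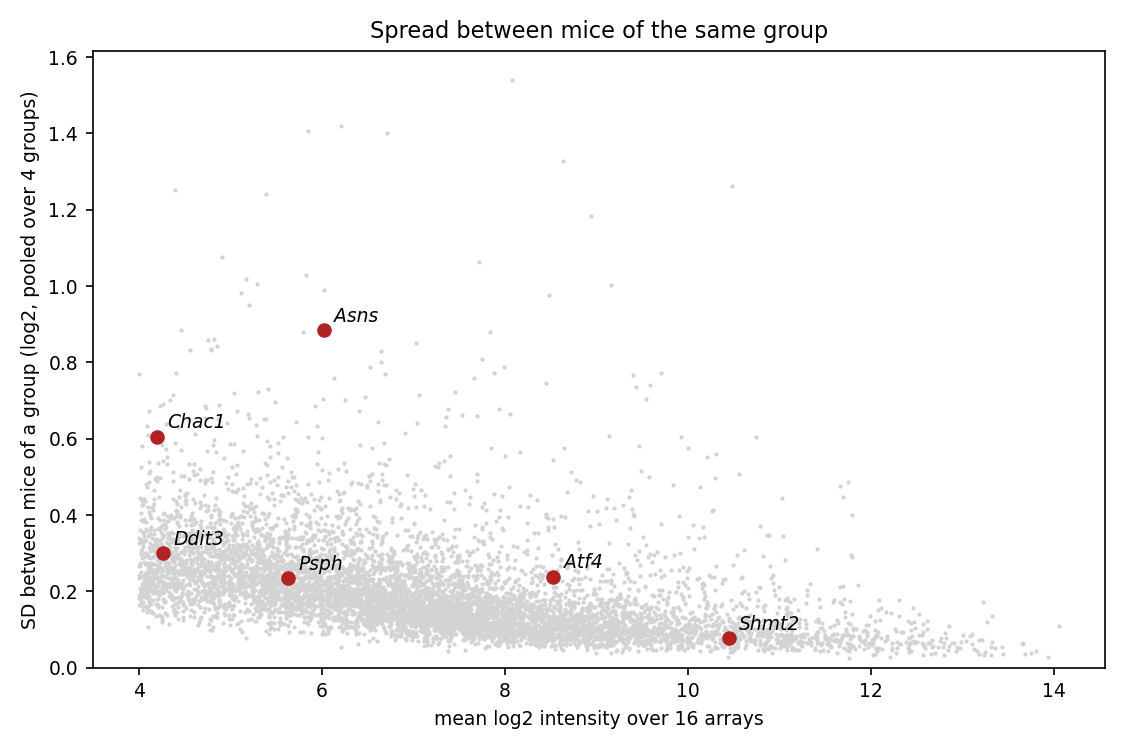
Standard deviation between mice of a group (vertical, log2, pooled over 4 groups) against the mean log2 intensity over 16 arrays (horizontal). Grey points are 7451 genes with a mean above 4, and red points are the 6 genes of the 10 above that level. Asns (0.88) and Chac1 (0.61) stand above 99.7% and 98.7% of the 7451 genes.

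The extremes did not fall on the same mouse for all genes. In treated wild type, mouse 4 had the highest value of its group for 5 of the 10 genes (Psat1, Psph, Mthfd2, Asns and Atf4) and the lowest for 4 (Phgdh, Shmt2, Trib3 and Ddit3), and mouse 3 had the lowest Psat1, Psph, Asns and Atf4. Among the wild-type controls, mouse 4 had the highest Asns, Trib3 and Chac1 and the lowest Atf4 and Ddit3. In treated knockout, mouse 4 had the highest Phgdh, Psat1 and Trib3 and the lowest Psph and Atf4. These are orders within groups of 4 and carry no test.

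When both genotypes received Wy14643, the comparison on which the study based its own gene lists, the same 3 genes of the 10 were called: Psat1 and Psph higher and Atf4 lower in wild type, against 15.3% of all genes (8.12% higher, 7.13% lower). In 4 of the 10 these groups did not overlap, 2 higher and 2 lower in wild type, against 27.7% of all genes (13.9% higher, 13.9% lower). This comparison shares the treated wild-type mice with the one above. Psat1 was higher by 1.38 ± 0.17 (adjusted p = 6.35e-06; at least 1.8-fold), Psph by 1.51 ± 0.16 (adjusted p = 8.54e-07; 2.85-fold), and Atf4 differed by -0.74 ± 0.16 (adjusted p = 0.00196; 1.67-fold lower). With the offset of 16 Psat1 gave 0.36 and was not called. Phgdh gave -0.62 (adjusted p = 0.0471) and Shmt2 -0.32 (adjusted p = 0.00826, 1.24-fold lower), and neither was called. Asns, Trib3, Ddit3 and Chac1 gave -0.20, 0.08, -0.27 and -0.12. The median of the 10 was -0.16 and that of all genes -0.04.

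On control food the genotypes differed in none of the 10 at the threshold (limma; 2 had an unadjusted p under 0.05), against 0.544% of all genes (0.401% higher, 0.143% lower). Psat1 was at background in both genotypes. Psph and Atf4 differed by 0.09 and 0.02, with intervals of -0.23 to 0.42 and -0.31 to 0.35. Asns was the only gene of the 10 whose genotypes did not overlap, all 4 wild-type mice lying below all 4 knockout mice, as did 3.99% of all genes in that direction, 4.18% in the other and 8.16% in either. The difference was -1.99 ± 0.53 (adjusted p = 0.145) in the brightest probe set and -2.25 (adjusted p = 0.0188) in the second, and neither passed.

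The 2 responses were compared by an interaction, wild type minus knockout, which also sets 1 substrain against the other. It was called for Psat1, at 1.33 ± 0.24 (adjusted p = 7.31e-04), and Psph, at 1.42 ± 0.22 (adjusted p = 2.05e-04), against 10% of all genes (5.38% higher, 4.62% lower). For Psat1 it rests on a single group above background, and with the offset of 16 it was 0.35 and not called. Its second probe set gave 1.05 and was not called (adjusted p = 0.0127). For Atf4 the interaction was -0.76 ± 0.22 and was not called (adjusted p = 0.0325), so its fall in wild type was not shown to differ from the -0.26 of knockout at this threshold. Without the wild-type control mouse 4, the lowest of its group, it was -0.90 and called (adjusted p = 0.00662). Shmt2 gave -0.47 (adjusted p = 0.00999), below the fold of 1.5. Asns gave 1.79 ± 0.75 (adjusted p = 0.157).

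**Figure D4:**
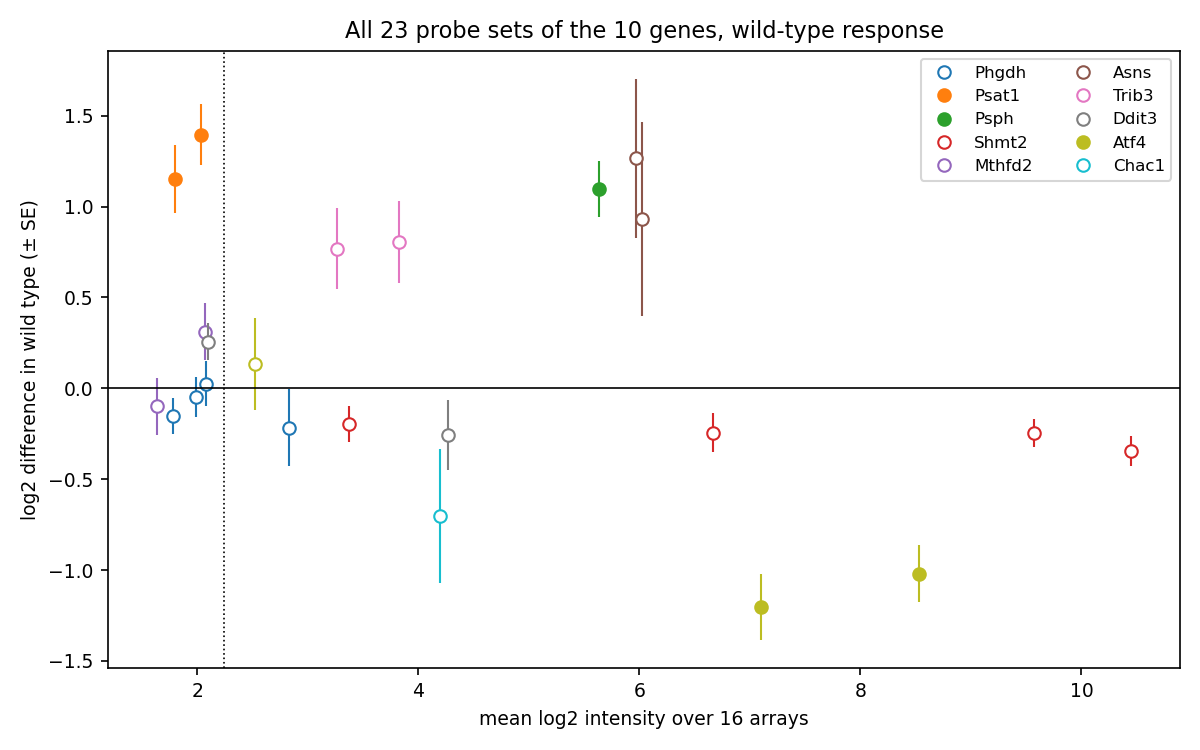
Log2 difference in wild type between Wy14643 and control food (vertical, ± SE) against the mean log2 intensity over 16 arrays (horizontal) for all 23 probe sets of the 10 genes, coloured by gene, filled where called. The dotted line is the highest array median, 2.24. Both Psat1 probe sets lie left of it, both bright Atf4 probe sets lie below -1, and 4 of 4 Shmt2 probe sets lie slightly below 0.

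The genes closest in pattern to those called were sought among 5696 genes with a group mean of at least 6, by the root mean square difference of the centred log2 values over the 16 mice. Psph was nearest to Rbpms (0.13), Dcakd (0.16) and Acsf3 (0.17), against a root mean square of 0.60 of Psph about its own mean. Psat1 was nearest to Gde1 (0.20), Hsd17b7 (0.20) and Fcf1 (0.21), against 0.65 of its own. Atf4 was nearest to Nmi (0.18), Kmt2e (0.19) and Bptf (0.19), against 0.46. Asns, added after its spread had been seen, had no gene near it, the nearest being H1f2 at 0.74 against 1.04 of its own.

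Of 26 measured enzymes of serine, glycine and one-carbon metabolism other than the 10, 4 rose and 9 fell in wild type on Wy14643. Their median was -0.28 against -0.03 for all genes, of which 7.72% were called higher and 6.74% lower. Those that fell include Cbs, which joins serine to homocysteine, at -2.29 ± 0.11, Sardh, which oxidises sarcosine to glycine, at -1.52, and Aldh1l1, a cytosolic formyl-folate dehydrogenase, at -1.46. Each was bright, with levels of 10.36, 11.00 and 12.27 on control food. Gnmt, which methylates glycine, had an interaction of -1.47. The 4 that rose are named after their values were seen: Mthfd1l, which releases mitochondrial formate, at 1.88 ± 0.34, Slc25a32, the mitochondrial folate carrier, at 1.75 ± 0.21, Mtrr at 1.12 and Chdh at 0.86. In knockout none of the 26 was called, against 0.0275% of all genes. Of their interactions 1 was called positive and 9 negative, against 5.38% and 4.62% of all genes. Over the 24 alternative settings 3 to 4 of the list rose and 9 to 10 fell.

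Of 12 measured kinases, phosphatase subunits, exchange factor subunits and regulators of eIF2, 1 was called in wild type, Impact, a protein that restrains the amino acid sensor GCN2, at 1.73 ± 0.17 (adjusted p = 7.35e-07). It stood at 4.77 on control food and at 6.50 on Wy14643, and its interaction was 1.51. The list's median was 0.11, against -0.03 for all genes, of which 7.72% were called higher and 6.74% lower in wild type.

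Of 19 other known ATF4 targets, 4 rose and 1 fell in wild type, where 7.72% of all genes were called higher and 6.74% lower. Vldlr, a lipoprotein receptor, rose by 3.94 ± 0.33 and Eif4ebp1, a brake on cap-dependent translation, by 1.08 ± 0.12. Cth, which makes cysteine, fell by 1.44 ± 0.11 on the log2 scale and also stands in the list of one-carbon enzymes. Cebpb, a partner of ATF4, exceeded its treated knockout level by 1.23 in treated wild type. Cebpb rose in wild type too, by 0.93, as did Fgf21, by 3.21 (both named here after their values were seen). Vldlr and Fgf21 are also known PPAR targets. Over the settings 3 to 4 rose and 1 fell. The median was 0.11, against -0.03 for all genes. It was -0.25 with the filter on mean log2 above 4, which left 10 genes of the list. Under the other settings it lay between 0.04 and 0.19.

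**Figure D5:**
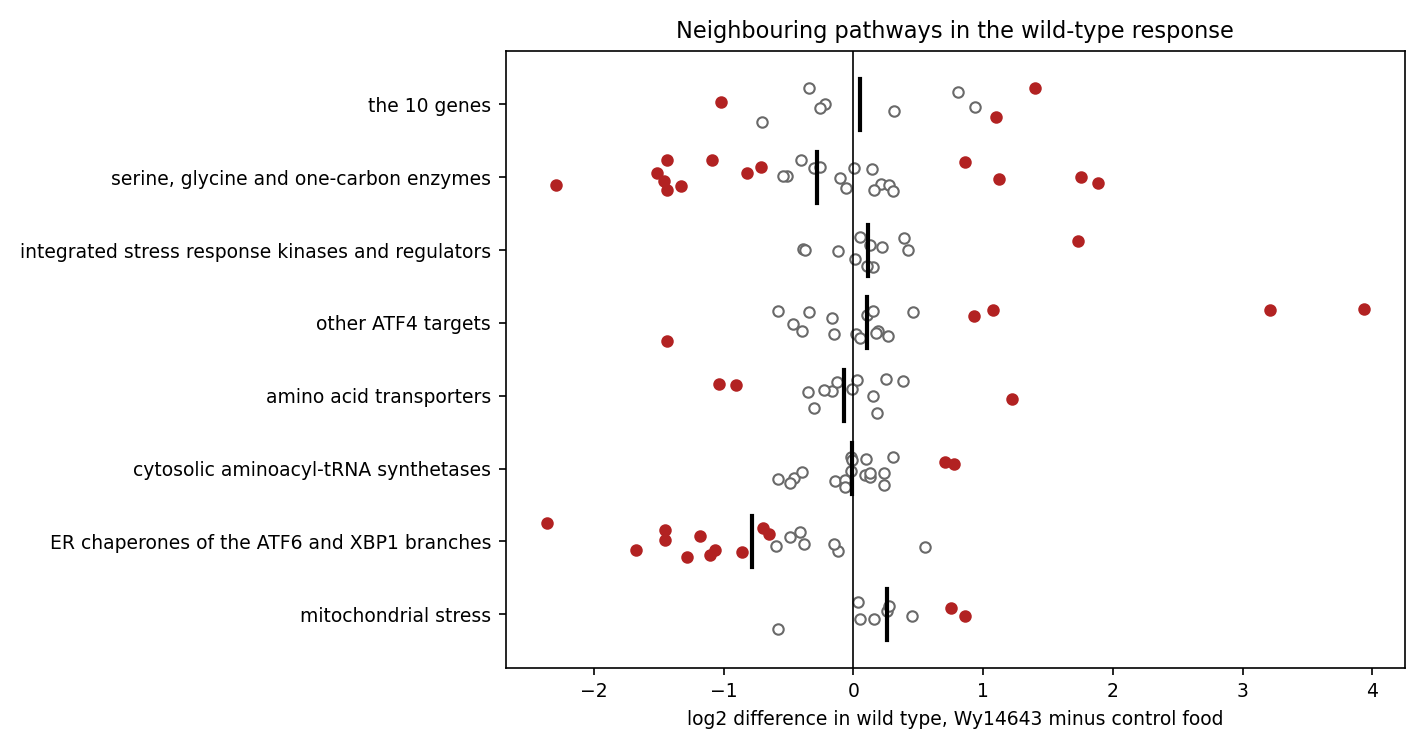
Log2 difference in wild type between Wy14643 and control food (horizontal) for the 10 genes and for 7 lists of related genes (rows), with 1 point per gene, red where called, and a black bar at the median of each list. The median of the endoplasmic reticulum chaperones stands at -0.78, and 11 of their 18 points are red.

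ATF4 is known to raise many amino acid transporters and tRNA synthetases. Of 14 transporters 1 rose, the glycine transporter Slc6a9 at 1.22, and 2 fell, the glutamine transporter Slc38a3 at -1.03 and the cationic transporter Slc7a2 at -0.91. Slc7a2 passed narrowly (limma, adjusted p = 0.0088). Over the 24 alternative settings 1 transporter rose and 1 to 2 fell, with only 1 falling under most of them. The median of the transporters, -0.07, ranged from -0.18 to 0.03. Of 19 cytosolic tRNA synthetases 2 rose, Lars at 0.71 and Vars at 0.78 (the latter named after its value was seen), and none fell in that comparison (limma), while Eprs differed by -0.72 between treated wild type and treated knockout. Over the settings 1 to 2 rose and 0 to 1 fell. The median of the list was -0.01. For all genes the median in wild type was -0.03, with 7.72% called higher and 6.74% lower.

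Chaperones of the endoplasmic reticulum are known to answer to ATF6 and XBP1 more than to ATF4. Of 18 genes of these branches, 11 fell and none rose (limma) in wild type, with a median of -0.78 against -0.03 for all genes. In that comparison 6.74% of all genes were called lower and 7.72% higher. Sdf2l1 gave -2.37 ± 0.33, Hyou1 -1.68 ± 0.19 and Dnajb11 -1.45 ± 0.14. The factor Xbp1 itself differed by -1.42 between treated wild type and treated knockout, and Manf had an interaction of -1.49. In knockout none was called (limma), against 0.0275% of all genes, and the median was -0.22 against 0.01 for all genes. Of these 18 knockout differences, 8 had an unadjusted p under 0.05, and the lowest was -1.05. Of the interactions 6 were called, all negative, against 4.62% of all genes called in that direction. Over the 24 settings 11 to 12 fell. Of 9 genes of mitochondrial stress 2 rose, the paired chaperonins Hspe1 at 0.86 and Hspd1 at 0.75, and the median was 0.26.

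Markers of other cells moved in the same comparison, in which 7.72% of all genes were called higher and 6.74% lower. All 8 hepatocyte markers were bright in every group. Cps1 alone was called, lower in treated wild type, but all 8 differences were negative, from -0.97 to -0.07 with a median of -0.36. The summed intensity of the 8 markers was 58077 to 61800 per treated wild-type mouse against 73491 to 74869 on control food. Of 8 Kupffer cell markers 7 fell, their summed intensity being 527 to 638 against 931 to 1137, with 2 of the 8 at background. Of 6 stellate cell markers 3 fell (960 to 1012 against 1494 to 1601), and of 6 endothelial markers 1 rose and 1 fell (347 to 392 against 420 to 510). Of 4 cycling cell markers 3 rose (54.7 to 129 against 14.3 to 16.6), with 3 of the 4 at background on control food. Alas2, the only measured erythroid marker, fell as well (84.4 to 119 against 488 to 595). Markers of cholangiocytes, lymphocytes and neutrophils had none called (limma), but most of them were at background. In treated wild type that held for 3 of 4, 3 of 3 and 2 of 2, so they show little about these cells. The part of these shifts in the changes of Psat1, Psph and Atf4 was not tested.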

How the data were processed

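The deposited file holds an intensity for every probe set on each array. Per the submitters' processing notes the authors computed it with GCRMA 2.20, a method with a sequence-based background correction, quantile normalization and a summary over the probes. Because all arrays are given the same distribution, a change shared by most genes would be hidden, and values of dim probe sets depend on the background correction. The deposited values were positive, with highest values of 18107 to 22364 per array, and are taken to be linear, a scale inferred from the values; log2 was taken with no offset. The labels give 4 mice per group, and their labelling protocol differs from that of the study's methods.

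Of 45101 probe sets, 64 controls were left out. The annotation named 1 gene for 34945, several for 932 and none for 9160, and the brightest of a gene's probe sets over the 16 arrays stood for it. Limma 3.58.1 in R 4.3.3 was fitted with 1 mean per group, two-sided, and the threshold (adjusted p under 0.01, fold over 1.5) is that of the study. The fit had first been tested on simulated data. The changed probe sets there all had a mean log2 above 6, so dimmer genes such as Psat1 and Psph were not covered. Named were all 10 genes, Ppara, up to 3 called genes per list with the largest difference and a group mean of at least 6, and the 3 genes nearest to each called gene. The members and lists were chosen with earlier results of these data known. The 7 lists held 126 entries, of which 117 had a probe set. Alternatives were an offset of 16 before the log, a filter on mean log2 above 4, median centring, quantile normalization, only the groups compared, trend and robust moderation, array weights, replicate number as a block, the mean of all probe sets of a gene, and leaving out each array. The number of arrays limits the precision of every value.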

Additional observations from a re-analysis of the deposited data

Results flagged for a closer look

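In 4 of 40 groups of 4 mice tested (10 genes in 4 groups), 1 mouse stood far from the rest of its group, where chance gives about 1 in 20. Psph of treated wild type had mouse 4 at 6.88, above a next value of 6.52. Psph of treated knockout had mouse 4 at 4.57, below a next value of 5.22. Without it the difference between the genotypes on Wy14643 was 1.34 in place of 1.51, and still called. Trib3 of knockout on control food had mouse 2 at 3.28, below a next value of 3.79. Atf4 of wild type on control food had mouse 4 at 8.44, below a next value of 8.94. Without it the wild-type response was -1.16 in place of -1.02, and the interaction was called.

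The response to Wy14643 differed between the genotypes, by the interaction term, for Psat1 at 1.33 (2.93, 3.40, 2.55 and 3.47 in treated wild type, with the other 3 groups at background) and for Psph at 1.42 (a rise of 1.10 in wild type and a difference of -0.32 in knockout).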

How the results depend on the processing

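None of the 10 genes was called in knockout or between genotypes on control food under any alternative (limma). In wild type 3 were called, 2 with an offset of 16 before the log, 2 with the filter on mean log2 above 4, which Psat1 does not pass, and 4 without treated mouse 4 or with the mean of all probe sets. Between genotypes on Wy14643 3 were called, 2 with that offset and 2 with that filter. For the interaction 2 were called, 1 with that offset, 1 with that filter and 3 without wild-type control mouse 4. With the offset Psat1 was under the fold of 1.5 in all 3 comparisons (0.36 in wild type, 0.36 between genotypes on Wy14643, 0.35 in the interaction), since an offset shrinks the differences of dim genes. Over all alternatives the wild-type response ranged from 0.88 to 1.16 for Psph and from -1.16 to -0.70 for Atf4, and without 1 array at a time from 1.27 to 1.57 for Psat1.

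The 42 results not called were refitted 1025 times, and 3 of these refits became called. For Trib3 in wild type it was without treated mouse 4 and with the mean of its probe sets. For the Atf4 interaction it was without control mouse 4. Signs changed in 33 refits, spread over 11 results, none of them called.

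Whether replicate numbers pair the mice could not be settled from the values. Deviations of same-numbered mice correlated at -0.12 to 0.19 (median 0.05, 6 of 24 pairs above 0.1). Those of mice with other numbers correlated at -0.28 to 0.20 (median -0.02, 7 of 72 pairs above 0.1). Of the 16 arrays, 6 correlated best with their own number. With the replicate number as a block 3, 0, 3, 0 and 2 genes were called in the 5 comparisons, as without it, and the adjusted p of Psph in wild type was 1.20e-04. Signal over background limits Phgdh, Psat1 and Mthfd2, where small changes would not be detectable.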
